A study of Mus musculus with 10 samples.

Results

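The D cyclins (Ccnd1, Ccnd2 and Ccnd3), the E cyclins (Ccne1 and Ccne2) and the kinases they activate in G1 (Cdk4, Cdk6 and Cdk2) were followed in sorted intestinal cells of embryos with and without p57Kip2. The 8 genes were named in advance and looked up by symbol. 7 of them had a row among the 20579 genes of the deposited table, and all 7 passed the filter on low counts. Ccnd2 was not analysed here. The libraries came from cells sorted by flow cytometry for green fluorescent protein made under the Hopx promoter, from intestinal crypts of mouse embryos at E18.5 taken apart mechanically, with the strain given as C57BL6/J / 129S4. The 5 p57KO libraries came from knockout embryos and the 5 p57WT libraries from wild-type embryos, and both groups carried the reporter by which they were sorted. The part of Cdkn1c, the imprinted gene of p57Kip2, that the knockout removes, and whether it is lost in every tissue, are not stated in the labels.

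D cyclins are made in response to growth signals and bind the kinases encoded by Cdk4 and Cdk6. These complexes phosphorylate the retinoblastoma protein, which releases E2F transcription factors. E2F raises cyclin E, and cyclin E with the product of Cdk2 takes the cell into DNA synthesis. p57Kip2 binds and inhibits these cyclin-kinase complexes, and in the intestine cyclin D1 is known as a gene of dividing crypt cells and a target of Wnt signalling.

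Total counts were between 8037887 and 26809231 per library, and the 7 genes had between 173 and 20783 reads in each library. Levels are in CPM, the read counts relative to library size scaled by the trimmed mean of M values (TMM). Cdkn1c was at 0.153 to 2.06 CPM in the p57KO and at 151 to 458 CPM in the p57WT libraries, so the labels held in all 10. The labels also carry a number of unstated meaning: 607 for p57KO 1, p57KO 2 and p57WT 1, 608 for p57KO 3 to 5 and 740 for p57WT 2 to 5. Reads on 3 ribosomal RNA repeat features made up less than 5% of counts in p57KO 1 to 4 and p57WT 2, and more in the other 5 libraries. Although the cells are labelled as intestinal stem cells, the summed level of 12 smooth muscle markers was 54762 to 107403 CPM in p57WT and 5329 to 35103 CPM in p57KO. The sum of 8 fibroblast markers was 2626 to 8698 CPM in p57WT and 151 to 1370 CPM in p57KO. That of 17 epithelial markers was 3134 to 7613 CPM in p57WT and 9110 to 17722 CPM in p57KO, and that of 9 myeloid markers 28.8 to 151 CPM in p57WT and 206 to 8502 CPM in p57KO. The sum of 12 markers of differentiated epithelium was 890 to 2157 CPM in p57WT and 7765 to 13299 CPM in p57KO (11 of 12 rose in edgeR), and that of 8 erythroid markers was 3.51 to 92.6 CPM in p57WT and 108 to 1312 CPM in p57KO (7 of 8 rose). The summed levels did not overlap between genotypes in any of these 6 lists. The sums of 13 crypt stem markers did overlap (1144 to 1667 CPM in p57WT, 992 to 1398 CPM in p57KO). So did those of 4 endothelial and 7 enteric neuron and glia markers. For single genes, the groups did not overlap for 12 of 12 smooth muscle, 6 of 8 fibroblast and 10 of 12 differentiated epithelium markers. The same held for 5 of 8 erythroid, 9 of 17 epithelial and 3 of 9 myeloid markers, against 24.2% of all genes. The part of these cell types in the results on single genes was not tested. In such bulk libraries fewer cells of a type and less RNA per cell cannot be told apart.

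The RefSeq promoters of the 2 kinases that partner the D cyclins are shown because Cdk4 and Cdk6 differed in how their levels stood in the knockout. RefSeq windows (250 bases before and 50 after a start, build GRCm38.p6) were found for 5 of the 7 genes: Cdk4, Cdk6, Cdk2, Ccne1 and Ccnd3. They were searched on both strands for CACGTG (the E-box, bound by Myc and related factors), TTTNNCGC (a loose E2F pattern) and GGGCGG (the GC box). N stands for any base. The capitals mark E-boxes in the windows at chr10:127063285-127063584 (plus strand, Cdk4) and chr5:3343643-3343942 (plus strand, Cdk6).
Cdk4: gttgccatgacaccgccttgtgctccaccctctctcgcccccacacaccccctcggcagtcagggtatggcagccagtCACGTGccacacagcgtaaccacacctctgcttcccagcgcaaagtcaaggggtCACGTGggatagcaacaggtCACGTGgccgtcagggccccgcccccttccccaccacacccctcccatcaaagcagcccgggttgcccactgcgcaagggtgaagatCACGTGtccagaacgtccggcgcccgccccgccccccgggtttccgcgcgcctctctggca
Cdk6: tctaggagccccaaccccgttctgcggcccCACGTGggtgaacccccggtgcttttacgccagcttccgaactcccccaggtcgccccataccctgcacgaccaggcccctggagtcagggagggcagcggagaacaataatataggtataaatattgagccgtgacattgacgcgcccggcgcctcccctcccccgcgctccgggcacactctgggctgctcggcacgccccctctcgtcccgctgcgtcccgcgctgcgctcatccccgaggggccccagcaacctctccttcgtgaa
The Cdk4 window held 4 E-boxes, starting at bases 79, 133, 153 and 240, and the Cdk6 window held 1, starting at base 31. At least 1 E-box was present in 7.15% of 32851 promoter windows, and 4 or more were present in 8 of them (0.0244%). A match to the loose E2F pattern was found in the windows of Cdk6 (TTTTACGC) and Cdk2 (GCGGGAAA, from the other strand), against 5.17% of all windows. The GC box was found in those of Cdk4, Cdk2, Ccne1 and Ccnd3, against 35.7%. No GC box or E2F match overlapped an E-box. The Cdk6 start used by RefSeq lies inside the gene's annotated span, after its first annotated base. These matches describe the letters of the windows only.

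In the cells without p57Kip2 Ccnd1, Ccnd3 and Cdk6 were lower, the call of Ccnd3 being close to the threshold, while Cdk4, Cdk2 and the E cyclin genes did not pass the test. Of the 7 genes, 3 were called lower and 0 higher by edgeR at an adjusted p below 0.05 over all 16710 genes tested. Over all genes 36.5% were called, 17.2% lower and 19.3% higher, so a call in either direction was about as frequent among the 7 genes (42.9%) as elsewhere. At an unadjusted p below 0.05 a 4th gene, Cdk4, was higher, and DESeq2 and limma voom likewise called 0 higher. The p57KO and p57WT libraries did not overlap for the same 3 genes, all with p57KO below, which held for 12.7% of all genes (24.2% in either direction). The median log2 fold change was -0.45 over the 7 genes and 0.08 over all genes tested.

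**Figure D1:**
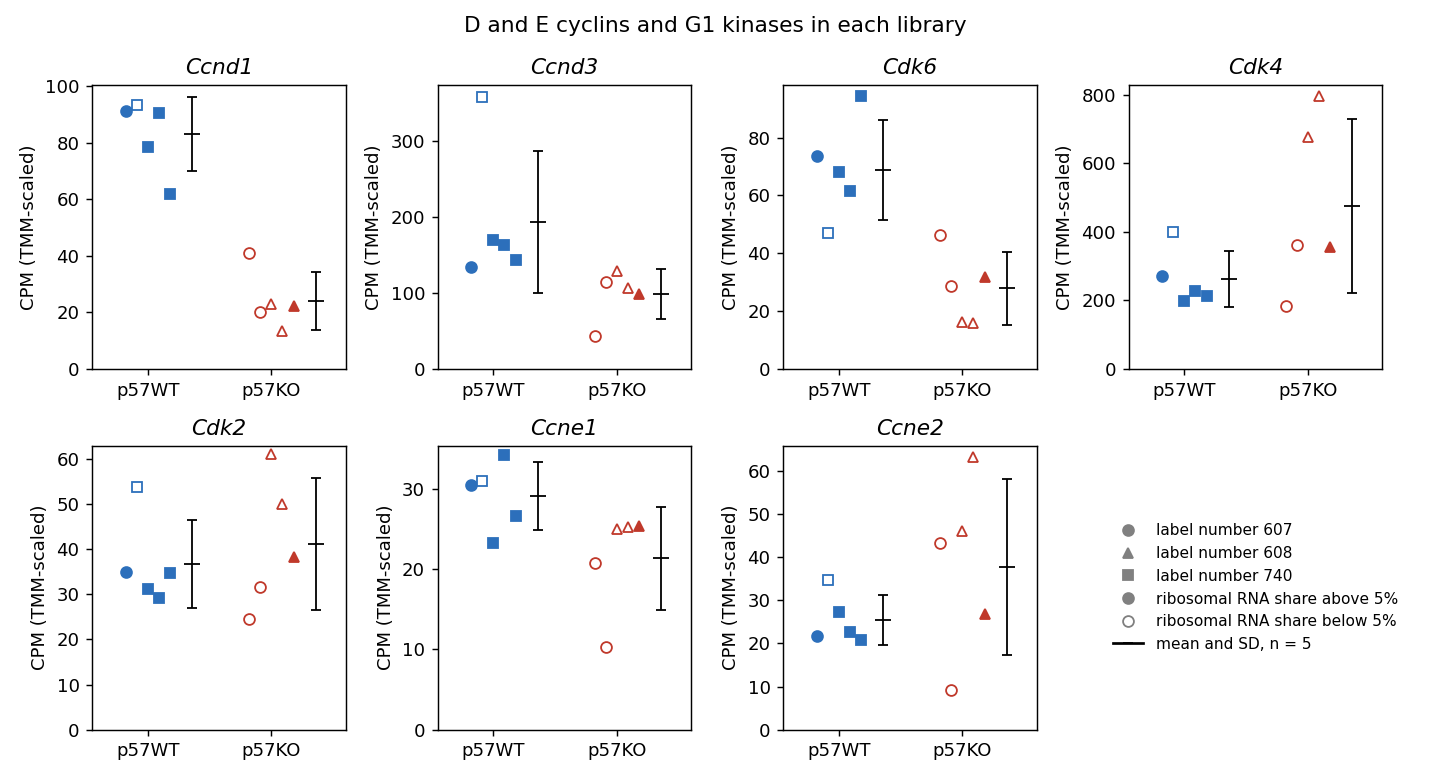
Level of each of the 7 genes in each library (vertical axes, CPM from 0, each panel with its own range), for p57WT in blue and p57KO in red. Marker shape gives the label number, filled markers the libraries with a ribosomal RNA share above 5%, and the bar the mean and SD of 5 libraries. All p57KO points lie below all p57WT points for Ccnd1, Ccnd3 and Cdk6, and the groups overlap for the other 4 genes.

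Ccnd1 (ENSMUSG00000070348, chromosome 7, 144929931 to 144939925, minus strand, GRCm38) encodes cyclin D1. It was at 91.1, 93.3, 78.7, 90.7 and 61.9 CPM in p57WT 1 to 5 and at 40.9, 20.0, 23.0, 13.2 and 22.2 CPM in p57KO 1 to 5. Every knockout library was below every wild-type library, and p57KO 1 was the highest of the knockouts. Wild-type libraries averaged 83.1 ± 13.2 CPM and knockouts 23.9 ± 10.2 CPM (SD, n = 5 each), a level 3.49-fold lower in p57KO (log2 fold change -1.80, SE 0.29, 95% limits -2.42 to -1.19, edgeR adjusted p = 0.000833). Ccnd1 was called lower when any 1 library was left out (log2 fold change -2.08 to -1.64). It also stood apart within each class of ribosomal RNA share, at 13.2 to 40.9 CPM in p57KO 1 to 4 against 93.3 CPM in p57WT 2, and at 22.2 CPM in p57KO 5 against 61.9 to 91.1 CPM in the other p57WT libraries. Within label number 607, the only number with both genotypes, p57KO 1 and p57KO 2 against p57WT 1 gave -1.58 on the log2 scale and did not pass (edgeR adjusted p = 0.0751). In that contrast 0 of the 7 genes passed and 6.04% of all genes did, and 1 of the 7, Ccnd1, had an unadjusted p below 0.05.

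Ccnd3 (ENSMUSG00000034165, chromosome 17, 47505051 to 47599691, plus strand) encodes cyclin D3. Its level was 134, 358, 169, 163 and 143 CPM in p57WT 1 to 5 and 43.9, 115, 129, 107 and 98.2 CPM in p57KO 1 to 5. The groups did not overlap, but the gap between the highest knockout (p57KO 3) and the lowest wild type (p57WT 1) was small beside the spread, and p57WT 2 and p57KO 1 stood away from their groups. Means were 194 ± 93.2 CPM in p57WT and 98.6 ± 32.7 CPM in p57KO (SD, n = 5 each), with a log2 fold change of -0.97 (SE 0.34, 95% limits -1.70 to -0.24, edgeR adjusted p = 0.0386). This call was close to the threshold. It was lost in edgeR without p57KO 1, 2, 4 or 5 or p57WT 2, 3 or 4, with adjusted p from 0.0528 to 0.111, as well as without a count filter, and kept without p57KO 3, p57WT 1 or p57WT 5. Without p57WT 2 Ccnd3 was at -0.62 on the log2 scale (edgeR adjusted p = 0.111), and within 607 it was -0.75 (edgeR adjusted p = 0.497).

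Cdk6 (ENSMUSG00000040274, chromosome 5, 3341485 to 3531008, plus strand) encodes one of the kinases that the D cyclins activate. It was measured at 73.5, 46.8, 68.1, 61.4 and 94.3 CPM in p57WT 1 to 5 and at 46.2, 28.8, 16.2, 16.0 and 31.9 CPM in p57KO 1 to 5. The highest knockout, p57KO 1, was just under the lowest wild type, p57WT 2, and the lowest values were those of p57KO 3 and p57KO 4. Group means of 68.8 ± 17.4 and 27.8 ± 12.5 CPM (SD, n = 5 each) gave a level 2.47-fold lower in p57KO (log2 fold change -1.31, SE 0.32, 95% limits -1.99 to -0.63, edgeR adjusted p = 0.00716). The call held when any 1 library was left out (-1.56 to -1.15). With a term for the class of ribosomal RNA share the value of -1.01 missed the threshold (edgeR adjusted p = 0.0939), and within 607 it was -0.97 (edgeR adjusted p = 0.304).

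Cdk4 (ENSMUSG00000006728, chromosome 10, 127063534 to 127067920, plus strand) encodes the other D cyclin kinase, and its values leaned the opposite way. It was at 270, 400, 197, 228 and 213 CPM in p57WT 1 to 5 and at 183, 360, 677, 797 and 356 CPM in p57KO 1 to 5. The groups overlapped, since p57KO 1 was the lowest of all 10 libraries while p57KO 3 and p57KO 4 were far above the rest. Means were 262 ± 82.1 CPM in p57WT and 474 ± 254 CPM in p57KO (SD, n = 5 each). A log2 fold change of 0.86 (SE 0.37, 95% limits 0.05 to 1.66) resulted and missed the threshold (edgeR adjusted p = 0.0861). Without p57KO 1 it was 1.07 and passed (edgeR adjusted p = 0.0182). With p57KO 1 and p57KO 2 both left out it was 1.29 (edgeR adjusted p = 0.00704), and within 607, which holds only those 2 knockouts, it was 0.0062 (edgeR adjusted p = 0.996). In those 2 libraries the smooth muscle sum was the lowest, at 5329 and 8071 CPM. It was 24993 to 35103 CPM in p57KO 3 to 5, and 54762 to 107403 CPM in p57WT, where Cdk4 was at 197 to 400 CPM. The highest myeloid sum was in p57KO 2, whose Cdk4 level (360 CPM) was near that of p57KO 5 (356 CPM). The part of smooth muscle or myeloid cells in the Cdk4 level was not tested.

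Cdk2 (ENSMUSG00000025358, chromosome 10, 128697939 to 128705031, minus strand) encodes the kinase that cyclin E activates. It stood at 34.8, 53.7, 31.1, 29.2 and 34.6 CPM in p57WT 1 to 5 and at 24.6, 31.6, 61.1, 50.1 and 38.2 CPM in p57KO 1 to 5. The groups overlapped over most of their range, and the 3 highest libraries were p57KO 3, p57WT 2 and p57KO 4. Knockouts averaged 41.1 ± 14.6 CPM and wild types 36.7 ± 9.81 CPM (SD, n = 5 each). Their log2 fold change, 0.16 with SE 0.28, did not pass in edgeR (adjusted p = 0.670). Its 95% limits were -0.44 to 0.76, so a difference up to 1.70-fold upward or to 0.739 of the wild-type level was within its error.

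Ccne1 (ENSMUSG00000002068, chromosome 7, 38097984 to 38107534, minus strand) encodes cyclin E1. Its level was 30.5, 31.0, 23.2, 34.1 and 26.6 CPM in p57WT 1 to 5 and 20.7, 10.3, 24.97, 25.2 and 25.3 CPM in p57KO 1 to 5. Most knockouts lay near the lowest wild type, and p57KO 2 was well below all others. Averages of 29.1 ± 4.24 CPM in wild type and 21.3 ± 6.46 CPM in knockout (SD, n = 5 each) gave a log2 fold change of -0.45 (SE 0.27, 95% limits -1.02 to 0.12, edgeR adjusted p = 0.197).

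Ccne2 (ENSMUSG00000028212, chromosome 4, 11191351 to 11204779, plus strand) encodes cyclin E2 and had the widest range of the 7 genes among knockouts. It was at 21.6, 34.7, 27.2, 22.6 and 20.9 CPM in p57WT 1 to 5 and at 43.2, 9.23, 46.0, 63.1 and 26.8 CPM in p57KO 1 to 5. In p57KO the highest library had 6.84 times the level of the lowest, against 1.66 times in p57WT, and p57KO 2 again held the lowest value. Means of 25.4 ± 5.77 CPM in p57WT and 37.7 ± 20.5 CPM in p57KO (SD, n = 5 each) corresponded to 0.57 on the log2 scale (SE 0.39, 95% limits -0.28 to 1.42, edgeR adjusted p = 0.273). It passed only without p57KO 2 (0.85, edgeR adjusted p = 0.0342) and with p57KO 1 and p57KO 2 both left out (0.91, edgeR adjusted p = 0.0270) among the settings that left out libraries.

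**Figure D2:**
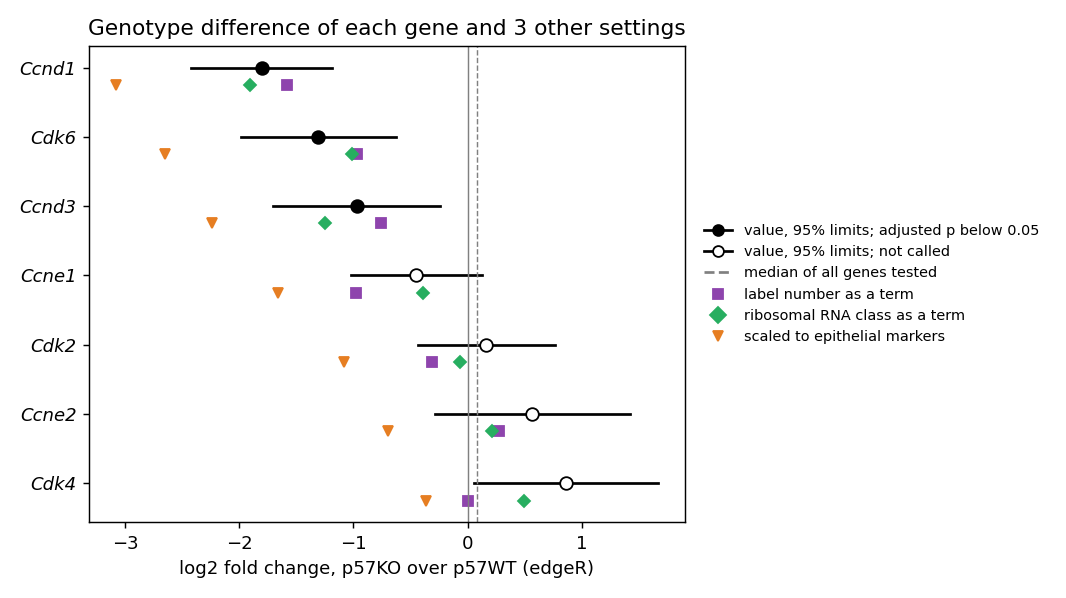
Log2 fold change of p57KO over p57WT for each of the 7 genes (horizontal axis), with 95% limits in the edgeR comparison as black lines and filled circles for an adjusted p below 0.05. Coloured markers give the value in 3 other settings, and the dashed line the median of all genes (0.08). Ccnd1, Cdk6, Ccnd3 and Ccne1 lie left of 0 in all 4 settings. Cdk4 and Ccne2 turn below 0 when libraries are scaled to epithelial markers, and Cdk2 in all 3 other settings.

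The direction of several genes rested on the scaling. With scaling to the epithelial markers in place of TMM, the all-gene median shifted to -1.20 from 0.08. On that scale Ccnd1, Cdk6 and Ccnd3 were at -3.08, -2.65 and -2.24, below the median of all genes. Ccne1 was at -1.66 and Cdk2 at -1.08, and both were called lower, although Cdk2 was above the median. That made 5 of the 7 lower and 0 higher, on a scale where 58.5% of all genes were called lower and 2.93% higher. Ccne2 was at -0.69 and Cdk4 at -0.36, neither of which passed (edgeR adjusted p = 0.194 and 0.490), and both were above the median.

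Ratios of 2 genes within a library do not depend on its depth or scaling. The ratio of Cdk6 to Cdk4 counts was 0.272, 0.117, 0.345, 0.269 and 0.442 in p57WT 1 to 5 and 0.253, 0.0801, 0.0240, 0.0201 and 0.0897 in p57KO 1 to 5. Of the knockouts, 4 were below every wild-type library and p57KO 1 was within the wild-type range. The mean log2 ratio was -1.92 ± 0.72 in p57WT and -4.02 ± 1.5 in p57KO (SD, n = 5 each), a difference of -2.11 (exact two-sided permutation p = 0.0159, Benjamini-Hochberg adjusted over 3 ratios 0.0476). The smallest p that 5 against 5 libraries allow is 0.00794, and with 1 library fewer the adjusted value passed only without p57KO 1 or p57WT 2.

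Within the E cyclins, the ratio of Ccne1 to Ccne2 counts was 1.41, 0.892, 0.853, 1.51 and 1.27 in p57WT 1 to 5 and 0.480, 1.11, 0.543, 0.400 and 0.945 in p57KO 1 to 5. The knockouts with the lowest ratios were p57KO 4, p57KO 1 and p57KO 3, and the others lay among the wild types. The difference of the mean log2 ratio was -0.85 and missed the threshold after adjustment (exact permutation p = 0.0476, adjusted 0.0714). The ratio of Ccnd1 to Ccnd3 was 0.679, 0.260, 0.465, 0.557 and 0.432 in p57WT 1 to 5 and 0.930, 0.174, 0.178, 0.124 and 0.226 in p57KO 1 to 5. Here p57KO 1 was the highest of all libraries and the other 4 knockouts were below every wild type. The difference was -0.92 (exact permutation p = 0.143, also after adjustment) over all libraries and -1.41 without p57KO 1 (exact permutation p = 0.0159, adjusted 0.0238).

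**Figure D3:**
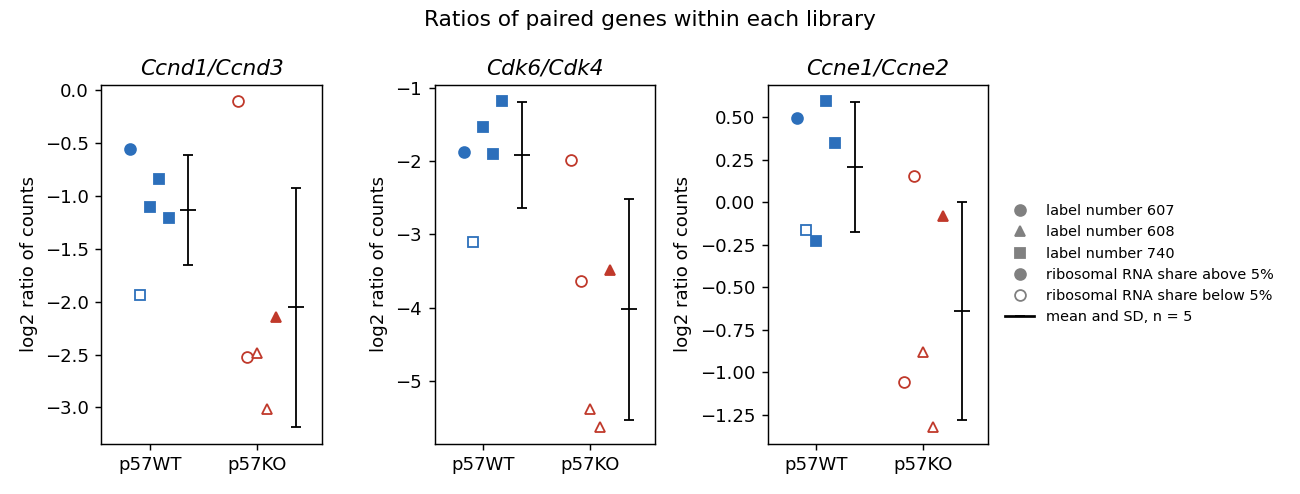
Log2 ratio of counts of 2 genes in each library (vertical axes), with p57WT in blue and p57KO in red, marker shape for the label number, filled markers for a ribosomal RNA share above 5%, and bars for the mean and SD of 5 libraries. In the Cdk6 to Cdk4 panel p57KO 3 and p57KO 4 lie lowest and p57KO 1 lies among the p57WT libraries.

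Levels of different genes were compared per length, as RPKM, the CPM divided by the annotated exon length in kilobases. Cdk4 was the highest in both genotypes, at 80.6 ± 25.3 RPKM in p57WT and 146 ± 78.0 RPKM in p57KO (SD, n = 5 each), and with this length its lowest library was above the highest library of the next gene in each genotype. In p57WT it was followed by Ccnd3 (22.1 ± 10.6 RPKM) and Ccnd1 (17.6 ± 2.80 RPKM), whose libraries overlapped. Below them stood Ccne1 (10.9 ± 1.59 RPKM), which lay under every Ccnd1 library, and then Ccne2 (7.27 ± 1.65 RPKM), Cdk2 (5.90 ± 1.58 RPKM) and Cdk6 (4.92 ± 1.24 RPKM), each overlapping its neighbour. In p57KO the order after Cdk4 was Ccnd3 (11.2 ± 3.72 RPKM), Ccne2 (10.8 ± 5.85 RPKM), Ccne1 (8.01 ± 2.43 RPKM), Cdk2 (6.61 ± 2.35 RPKM), Ccnd1 (5.07 ± 2.18 RPKM) and Cdk6 (1.99 ± 0.90 RPKM), and every pair of neighbours overlapped. Cyclin D1 thus held the third place by mean level in the wild type and the sixth in the knockout. With the longest principal transcript of each gene as its length, Cdk4, Ccnd3 and Cdk6 kept the first, second and last place in both genotypes, and Ccnd1 again the third and sixth, while Cdk2 rose to 16.4 RPKM in p57WT and 18.4 RPKM in p57KO. With that length Ccnd3 averaged 91.6 RPKM in p57WT and 46.7 RPKM in p57KO, and in p57WT its highest library (170 RPKM) was above the lowest of Cdk4 (96.1 RPKM), so those neighbours overlapped.

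Genes on the other strand that have a row of their own share exon bases with 5 of the 7. No source used here states the strand setting of the counting, and reads from the shared exons cannot be told apart. Tspan31, a tetraspanin gene, shares 641 bases (19.7% of exon bases) with Cdk4, and was itself called higher in p57KO (log2 fold change 1.36, edgeR adjusted p = 0.0124). LTO1 shares 1100 bases (23.4%) with Ccnd1 and was not called (0.58, edgeR adjusted p = 0.151), and Ints8, an Integrator subunit gene, shares 609 bases (17.4%) with Ccne2 (-0.20, edgeR adjusted p = 0.545). Bysl shares 4.11% of the exon bases of Ccnd3 and Pmel 0.547% of those of Cdk2.

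Knockout libraries of different label numbers were also compared. Between the p57KO libraries of 608 and those of 607, 0 of the 7 genes passed in edgeR, where 6.68% of all genes did, and 2 had an unadjusted p below 0.05. These were Cdk4, with a log2 difference of 1.17 (608 over 607, edgeR adjusted p = 0.148), and Cdk2, with 0.83 (edgeR adjusted p = 0.183). The Cdk4 difference of 1.17 within the knockouts stood beside 0.86 between genotypes. For p57WT 2 to 5 against p57WT 1 the values of the 7 genes ran from -0.17 for Ccnd1 to 0.64 for Ccnd3, and 0 of all genes (0%) passed in edgeR there, with 0 of the 7 at an unadjusted p below 0.05.

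Among the other genes that act on these complexes, inhibitors moved in both directions. Of 6 inhibitor genes tested, 2 rose and 1 fell (median 0.43), beside 19.3% and 17.2% of all genes, and the one that fell was Cdkn1c itself. When scaled to epithelial markers 1 rose and 3 fell, beside 2.93% of all genes higher and 58.5% lower. Cdkn1a, which encodes p21 and inhibits the same complexes, averaged 410 ± 287 CPM in knockouts against 94.3 ± 23.1 CPM in wild types (2.12 on the log2 scale, edgeR adjusted p = 0.00170), with p57KO 2 at 916 CPM and the other knockouts at 240 to 362 CPM. Cdkn2b, which encodes p15 and binds the products of Cdk4 and Cdk6, rose by 2.31 on the log2 scale (29.6 ± 8.62 against 5.94 ± 2.13 CPM, edgeR adjusted p = 0.000368). Within 607, with 1 wild-type library, Cdkn2b was at 1.91. The p57KO libraries were above all p57WT libraries for both, and scaled to epithelial markers Cdkn1a stayed above 0 (0.80) without passing (edgeR adjusted p = 0.0704). Cdkn1b, the p27 gene, was at 0.21, Cdkn2c, the p18 gene, at -0.76 and Cdkn2d, the p19 gene, at 0.65, and none of them passed with all libraries and TMM (edgeR adjusted p = 0.555, 0.151 and 0.159). Cdkn2d passed without p57KO 1 (0.85, edgeR adjusted p = 0.0436), and scaled to epithelial markers Cdkn1b (-1.15) and Cdkn2c (-1.99) were called lower.

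The counts for targets and regulators of the G1 kinases stand beside 19.3% of all genes higher and 17.2% lower. When scaled to epithelial markers they stand beside 2.93% higher and 58.5% lower, with an all-gene median of -1.20. Of 13 pocket protein and E2F genes, 0 rose and 1 fell (median -0.17), with 3 lower without p57KO 5 and 12 lower (median -1.48) when scaled to epithelial markers. E2f1, an activating E2F, was at -1.05 (edgeR adjusted p = 0.0383), a call that was lost without p57KO 2 or 4 or any p57WT library but was kept without p57KO 1, 3 or 5. E2f5 and E2f7, which encode repressing E2F factors, were at 0.51 and -0.94 and missed the threshold (edgeR adjusted p = 0.0617 and 0.0812). E2f5 passed in DESeq2 (adjusted p = 0.0413) but was called lower when scaled to epithelial markers (-0.78). E2f7 passed in limma voom (adjusted p = 0.0314), without p57KO 5 (-1.29) and when scaled to epithelial markers (-2.05). Rb1, the retinoblastoma gene, was at 0.10 (edgeR adjusted p = 0.802). Of 10 genes for kinase activation and assembly, 3 rose and 0 fell (median 0.43): Cks2 by 1.76 and Cks1b by 0.78, which encode small subunits of the kinases, and Cdc25c, a phosphatase gene of mitotic entry, by 1.29. Scaled to epithelial markers 0 rose and 6 fell, with Cks2 at 0.45, Cdc25c at 0.04 and Cks1b at -0.50, and none of these 3 passed. With the ribosomal RNA class as a term Cdc25c was at 0.84 and Cks1b at 0.54, and neither passed (edgeR adjusted p = 0.174 and 0.173). Within 607 Cks2, Cks1b and Cdc25c were at 2.21, 0.74 and 0.80. The Cks1b call was lost without p57KO 3 or 4 or p57WT 1, 3, 4 or 5 (edgeR adjusted p = 0.0581 to 0.0756). Of 15 genes for breakdown of G1 cyclins, 3 rose and 2 fell (median -0.36), against 3 and 5 without p57KO 1, and 0 and 11 when scaled to epithelial markers. Skp1a and Rbx1, subunits of the ubiquitin ligase core, rose by 1.09 and 0.75 but were at -0.20 and -0.57 when scaled to epithelial markers, and Usp2, which encodes a deubiquitinase of cyclin D1, was at -1.04. Fbxo4, an F-box gene, at 0.997, and Ambra1, an adaptor gene for breakdown of D cyclins, at -0.75, also passed and were named after their values were seen, and both calls were lost without p57KO 2 (0.58 and -0.63). The Rbx1 call was lost without p57KO 4 or p57WT 3 or 4, and with either wild-type library left out 1 gene of the list rose and 1 fell. Fbxw7, the cyclin E ubiquitin ligase gene, was at -0.80 and just missed the threshold (edgeR adjusted p = 0.0514), but passed in DESeq2 (adjusted p = 0.0282), in limma voom (adjusted p = 0.0231), without p57KO 1 (-1.06, edgeR adjusted p = 0.00883) and in 7 further settings. In the same list Skp2, which marks p27 for breakdown, was at -0.41 (edgeR adjusted p = 0.268).

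Of 18 transcription factor genes known to act on D cyclins, 1 rose and 4 fell (median -0.32), beside 19.3% and 17.2% of all genes. These counts were 1 and 6 without p57KO 2, and 1 and 8 without both p57KO 1 and p57KO 2. When scaled to epithelial markers they were 0 and 14, beside 2.93% of all genes higher and 58.5% lower. Mycn rose by 2.11 (18.5 ± 6.48 against 4.26 ± 1.11 CPM, edgeR adjusted p = 0.000875), with every knockout above every wild type. Mycn was at 2.06 within 607, and at 0.84 without passing when scaled to epithelial markers (edgeR adjusted p = 0.114). Its paralog Myc was at -0.55 and did not pass over all libraries (edgeR adjusted p = 0.205), but was at -1.02 and passed with p57KO 1 and p57KO 2 both left out (edgeR adjusted p = 0.0106) and at -0.92 without p57KO 2 alone (edgeR adjusted p = 0.0168). The Hedgehog effector Gli1 was at -3.04 and Wwtr1, the gene of the YAP relative TAZ, at -2.12 (edgeR adjusted p = 0.00318 and 0.00202). Gli2, at -2.69, and Yap1, at -0.90, also fell and were named after their values were seen, and the Yap1 call was lost without p57KO 3 or 4 or p57WT 1, 3, 4 or 5. These genes fell in the same libraries in which the smooth muscle and fibroblast sums were low, and the part of those cells in the decrease was not tested.

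The lists of genes that act after G1 were S-phase and mitosis genes, and their difference was not tested. Of all genes 19.3% were called higher and 17.2% lower, and 2.93% and 58.5% when scaled to epithelial markers. Of 30 S-phase genes that E2F drives, 3 rose and 1 fell (median 0.36): Ccna2, the cyclin A2 gene, by 1.17, Slbp, the histone stem-loop binding protein gene, by 1.12 and Cdk1 by 0.77, while Cdt1, a replication licensing gene named after its value was seen, was at -0.72. Scaled to epithelial markers Ccna2 was at 0.04, Slbp at -0.14 and Cdk1 at -0.46. Of 30 mitosis genes, 19 rose and 0 fell (median 0.94), among them Cdca3 by 1.61, Ube2c by 1.57 and the cyclin B2 gene Ccnb2 by 1.24, while scaled to epithelial markers these 3 were at 0.35, 0.35 and -0.05 and did not pass. Leaving out p57KO 1 or p57KO 2 gave 6 S-phase genes higher each, beside 3599 of 16959 and 2890 of 17083 genes tested. Without p57KO 1 and p57KO 2 there were 17 S-phase genes higher and 1 lower, and 23 mitosis genes higher. Of all 17312 genes tested in that setting 3571 were higher and 3299 lower. Within 607 no gene of either list passed in edgeR (0 of 30 each), with medians of -0.28 and 0.63, and scaled to epithelial markers 0 rose and 12 S-phase and 3 mitosis genes fell, with medians of -0.87 and -0.23 beside -1.20 over all genes. With the ribosomal RNA class as a term 0 S-phase and 12 mitosis genes rose, beside 1207 of all 16710 genes.

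Of 19 other cyclin genes, 5 rose and 1 fell (median 0.53), against 0 and 9 when scaled to epithelial markers. The shares of all genes called higher and lower were 19.3% and 17.2%, and 2.93% and 58.5% on the epithelial scale. Ccnb1, the cyclin B1 gene, rose by 2.35 (1.10 and not passing on the epithelial scale, edgeR adjusted p = 0.0737) and Ccnl2, a cyclin of splicing kinases, was at -0.90. Within 607 Ccnb1 was at 1.70 and Ccnl2 at -0.42. Ccng1 and Ccng2, named after their values were seen, rose by 0.80 and 1.28 but turned to -0.43 and -0.04 when scaled to epithelial markers. The count of 5 was 8 without p57KO 1 and 3 without p57WT 3 or p57WT 5. Of 16 other CDK genes, 1 rose, Cdk1, and 2 fell (median -0.05), against 2 and 4 without p57KO 1, 1 and 5 without both p57KO 1 and p57KO 2, and 0 and 12 when scaled to epithelial markers. Those that fell were Cdk17 at -1.49 and Cdk8, a kinase gene of the Mediator complex, at -1.61 (-2.11 within 607). Overlapping membership of the lists means that Ccna2, Ccnb1, Ccnb2, Ccnf, Ccnh, Cdk1 and Cdk7 are counted in more than 1 list.

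**Figure D4:**
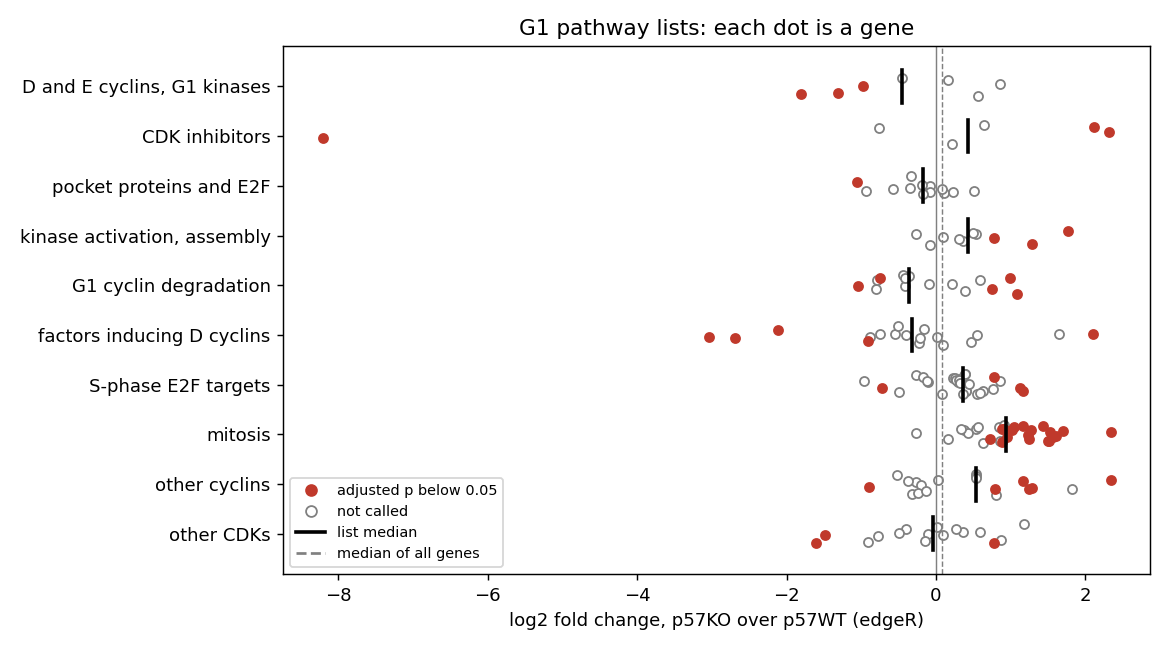
Log2 fold change of p57KO over p57WT (horizontal axis) for every tested gene of the G1 cyclins and kinases and of 9 related lists, with red dots for an edgeR adjusted p below 0.05, black bars for list medians and the dashed line for the median of all genes (0.08). The 3 called G1 genes lie left of 0, the 19 called mitosis genes right of 0, and Cdkn1c is the dot at -8.21.

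The genes with the most similar profile to 6 of the G1 genes were found by the root mean square distance of log2(CPM + 0.5), each gene centred on its own mean, over the 10 libraries among the 11339 genes whose average reached 5 CPM. For Ccnd1 they were Map3k12 and Eml5 (distances of 0.26 and 0.29), for Ccnd3 Serpinb9 and Ssbp2 (0.17 and 0.19), and for Cdk6 Sfswap and Csnk1e (0.17 and 0.18). Cdk4 was closest to Mmachc and Eif4a-ps4 (0.14 and 0.14), Cdk2 to Cttn and Smyd5 (0.09 and 0.09), and Ccne2 to Mmgt1 and Cbx5 (0.32 and 0.33). Reads of Eif4a-ps4, a pseudogene, may come from its parent gene. Among the 7 genes themselves the closest pair was Cdk4 and Cdk2 (0.41), followed by Ccne1 and Cdk2 (0.51) and Ccnd1 and Cdk6 (0.51).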

How the data were processed

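RNA from 10 libraries of sorted Hopx-GFP cells was analysed. Per the file headers and values, the deposited table gave unnormalized read counts for each gene, and a signal per library that the authors made by dividing counts by 1 size factor. The authors' own comparison was deposited as log2 fold changes with standard errors, a Wald score and p-values with adjusted p-values, per the file headers, and is not quoted here. The submitters' processing notes list DESeq2 1.22.2, HTSeq, Cufflinks 2.2.1, STAR 2.6.1d, Trim Galore and FastQC, and the build mm10 (GRCm38). The role of each tool and the strand setting are not given in the sources used here. Of 20579 gene identifiers 20558 matched GENCODE M21, which gave coordinates and exon lengths.

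Counts were tested with edgeR 4.0.16 in R 4.3.3 (quasi-likelihood test, TMM scaling, its expression filter, which removed 3869 genes, genotype as the only term), with Benjamini-Hochberg adjustment over the 16710 genes tested and a threshold of 0.05. Standard errors were derived from the F statistic. Label numbers were compared by edgeR contrasts over the 4 combinations of genotype and number, with the lone p57WT library of 607 assumed to vary like the others. Ratios were tested by exact permutation in scipy 1.17.1. 2 of the 5 planned ratios involved Ccnd2 and were left out. The fit was tested on simulated data. No animal identifiers were given; if libraries shared an animal, p-values measure technical spread. Depth gives 3 counts, the floor for a gene without reads, a level of 0.105 to 0.392 CPM.

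The genes and lists were chosen with earlier results of these data known. Named genes were all G1 cyclins and kinases, up to 3 genes with the smallest p per list, and 10 direct regulators, of which Cdkn2a was not analysed here. Genes known only by clone or model numbers, Xist and Y-linked genes were passed over in the search for similar profiles. The result of that search for Ccne1 is not reported here. Alternatives were edgeR with DESeq2 size factors, DESeq2 1.42.0, limma 3.58.1 (voom), no filter, single libraries and the pair p57KO 1 and 2 left out, terms for replicate number, label number and ribosomal RNA class, and scaling to epithelial markers. A transcript length was added after seeing the data.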

Additional observations from a re-analysis of the deposited data

Results flagged for a closer look

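In p57WT, Ccnd3 was at 358 CPM in p57WT 2 against 134 to 169 CPM in the other 4 libraries. Cdk2 was at 53.7 CPM in the same library against 29.2 to 34.8 CPM. In both cases 1 library lay farther from its group than Dixon's test allows for 5 values. Of 14 groups examined 2 met this rule, and chance gives about 1 in 20. p57WT 2 was also the wild-type library with 25527896 counts, against at most 9020153 in the others, and the only one with a ribosomal RNA share below 5%. The part of depth and ribosomal RNA share in these values was not tested.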

How the results depend on the processing

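Ccnd1, Ccnd3 and Cdk6 stayed below 0 in all 19 alternatives. So did Ccne1, which was called only when scaled to epithelial markers. With label number as a term, which leaves the 3 libraries of 607, 1009 genes were called and 0 of the 7: Ccnd1 was at -1.58, Ccnd3 at -0.75 and Cdk6 at -0.97, with Cdk2 turned to -0.31. With the ribosomal RNA class as a term 2959 genes were called, Cdk6 was at -1.01 and did not pass, and Cdk2 turned to -0.063. Scaled to epithelial markers 10260 genes were called (9771 lower and 489 higher) and 5 of the 7 were lower, with Cdk4, Ccne2 and Cdk2 turned to -0.36, -0.69 and -1.08. Without the count filter Ccnd3 was at -0.91 and did not pass. With p57KO 1 and p57KO 2 both left out Ccnd3 was at -0.73 and did not pass. In that setting Cdk4 at 1.29 passed, and 2 genes were called higher (Cdk4 and Ccne2). The Cdk6 to Cdk4 difference of -2.92 no longer passed (exact two-sided permutation p = 0.0357, adjusted 0.0536). That p is the smallest this test gives for 3 against 5 libraries, so the missed threshold does not show a weaker difference. Leaving out 1 library gave 4763 to 7141 calls over all genes, 2 to 3 of the 7 genes lower and 0 to 1 higher, -2.08 to -1.64 for Ccnd1, -1.08 to -0.62 for Ccnd3, -1.56 to -1.15 for Cdk6, 0.60 to 1.07 for Cdk4, and -0.010 (without p57KO 3) to 0.35 for Cdk2. The differences of log2 ratios were then -2.62 to -1.71 for Cdk6 to Cdk4, -1.41 to -0.68 for Ccnd1 to Ccnd3 and -1.04 to -0.67 for Ccne1 to Ccne2. The causes were not tested.

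Same-numbered libraries share only a number: the correlations of their deviations were -0.17 to 0.24 over 5 pairs, 2 of them above 0.1, and 3 of 10 libraries correlated best with their own number. With the replicate number as a block 5804 genes were called, Ccnd1, Ccnd3 and Cdk6 were at -1.88, -0.96 and -1.39 and passed, and the Cdk6 to Cdk4 difference of -2.11 had p = 0.0625 by exact permutation, the smallest that 5 pairs allow.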
